A study of Mus musculus with 16 samples.

Results

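The insulin-like growth factor (IGF) system was described here through its 2 ligands (Igf1, Igf2), 2 receptors (Igf1r, Igf2r) and 6 binding proteins (Igfbp2 to Igfbp7). These 10 genes were chosen by symbol from the 38720 lines of a gene-level RNA sequencing count table, and all 10 passed the filter for low counts that kept 16842 genes. The libraries came from mouse adipose progenitors, the precursor cells in fat that can become adipocytes, isolated at 4 weeks of age. Wild-type mice (WT, Nr4a1+/+, C57BL/6J) were compared with Nr4a1 knockout mice (KO, Nr4a1-/-), whose genotype is labelled B6;129S2-Nr4a1tm1Jmi/J and whose strain is also labelled C57BL/6J. Cells came from subcutaneous (SAT) or visceral (VAT) fat, which gave 4 groups (WT SAT, KO SAT, WT VAT, KO VAT) of n = 4 libraries. The orphan nuclear receptor that Nr4a1 encodes was the target of the knockout. The allele is carried by every cell type of the mouse and not by progenitors alone, and any 129 strain DNA around it cannot be told apart from the allele itself. The labels call the replicates biological but do not say that each was a separate animal, so the spread that p-values rest on may be technical.

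IGF1 and IGF2 are secreted peptides related to insulin. Both signal through the receptor tyrosine kinase IGF1R, while IGF2R binds IGF2 and carries it to lysosomes for breakdown. Binding proteins hold IGFs outside the cell, and proteases such as the pappalysins release them. In fat, IGF1 is known as a factor that promotes the growth and differentiation of preadipocytes.

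The 6 binding protein genes belong to a family whose shared feature is an amino-terminal IGF-binding domain rich in cysteines. The classical motif of that domain reads glycine, cysteine, glycine, cysteine, cysteine, any 2 residues, cysteine. Its coding bases are shown for the 4 genes in which a search of the translated GENCODE transcripts (build GRCm38, the assembly of mm10) found it, because these genes did not share a direction between depots below. Capitals mark the cysteine codons, and each sequence is given on the coding strand.
Igfbp2: ggcTGCggcTGCTGCtccgtgTGC
Igfbp3: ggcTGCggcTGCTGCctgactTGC
Igfbp4: ggcTGCggtTGTTGCgccactTGC
Igfbp5: ggcTGTggcTGCTGCatgactTGC
These 24-base stretches lie in the first coding exon at chr1:72824778-72824801 on the plus strand (Igfbp2), chr11:7213566-7213589 on the minus strand (Igfbp3), chr11:99041650-99041673 on the plus strand (Igfbp4) and chr1:72873966-72873989 on the minus strand (Igfbp5). Against the Igfbp5 stretch, Igfbp3 had 22 of 24 identical bases, Igfbp4 had 18 and Igfbp2 had 17. The exact motif was not found in Igfbp6 or Igfbp7, whose translated products of 238 and 313 residues held 16 and 19 cysteines.

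Library totals ranged from 34655519 to 55551845 counts, and the 10 genes together took 0.614% to 0.803% of each total. Levels below are CPM, here counts scaled by the library total times that library's TMM scaling factor. These factors were 0.865 to 0.931 in SAT and 1.089 to 1.193 in VAT, so CPM are not plain shares of the total. Changes are log2 fold changes ± SE. The adjusted p is the Benjamini-Hochberg value of edgeR's quasi-likelihood test over all tested genes, called under 0.05. Nr4a1, the targeted gene, had log2 KO changes of -2.43 ± 0.08 in SAT and -2.31 ± 0.08 in VAT, from 997 to 1648 CPM over the WT libraries to 195 to 327 CPM over the KO libraries. Reads of Nr4a1 were thus still counted in KO. Replicate 3 of WT SAT had the lowest mean correlation with its own group (0.976), the lowest total, and the lowest Igf1r, Igf2r and Igfbp5 and highest Igfbp6 of WT SAT. Summed progenitor markers, 9 genes including Pdgfra and Cd34, stood at 4922 to 5788 CPM in SAT and 2678 to 3561 CPM in VAT. The 9 were split between depots. In WT 2 were called higher (Pdgfrb and Itgb1) and 6 lower in VAT, with Pdgfra not called. In KO 1 was called higher (Pdgfrb) and 5 lower. The 8 mesothelial markers summed to 8.33 to 13.8 CPM in SAT and 881 to 1734 CPM in VAT, and the 8 pericyte and smooth muscle markers to 1873 to 3950 CPM in SAT and 4279 to 5306 CPM in VAT. Macrophage and myeloid markers summed to 16.9 to 30.7 CPM in SAT and 31.4 to 55.7 CPM in VAT, and epithelial markers to 1.48 to 3.47 CPM and 7.02 to 36.9 CPM. Of the 4 epithelial markers, Epcam and Krt14 were called higher in VAT in both genotypes, Cdh1 was not called and Krt5 was not tested. Endothelial markers summed to 218 to 322 CPM in SAT and 99.7 to 137 CPM in VAT. The largest part was Tek, with means of 205 CPM in WT SAT and 78.4 CPM in WT VAT. The 8 endothelial markers were split, with 3 called higher and 2 lower (Tek and Plvap) in VAT in each genotype. Their median log2 depot difference was 0.71 in WT and 0.74 in KO. In KO all 6 mature adipocyte markers were called higher in VAT, while in WT 0 of 6 were called, with a median log2 depot difference of 0.27. All the VAT against SAT differences below run alongside these marker levels, whose part in them was not tested.

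Binding protein transcripts far outnumbered ligand transcripts in every group. Per kilobase of exon, Igfbp6 led in SAT (1364 ± 501 CPM per kb in WT and 1163 ± 118 in KO, SD, n = 4) and Igfbp7 led in VAT (980 ± 25.1 in WT and 955 ± 52.9 in KO). In WT SAT the order went on with Igfbp7 (708), Igfbp5 (518), Igfbp4 (388), Igfbp3 (122), Igf1 (28.4), Igf2r (23.9), Igf2 (1.86), Igf1r (0.871) and Igfbp2 (0.149 CPM per kb). The neighbours Igfbp5 and Igfbp4, and Igf1 and Igf2r, overlapped in range there. In WT VAT the order after Igfbp7 was Igfbp6 (787), Igfbp4 (357), Igfbp5 (162), Igf1 (96.6), Igfbp3 (35), Igf2r (20), Igfbp2 (10.2), Igf2 (3.77) and Igf1r (0.938 CPM per kb), with no overlap between neighbours. In KO SAT, Igfbp5 (659) stood second and overlapped Igfbp7 (579) in range, and Igfbp3 (50.7) overlapped Igf1 (38.4). In KO VAT, Igfbp3 (25.5) overlapped Igfbp2 (19), which overlapped Igf2r (17.8 CPM per kb).

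**Figure D1:**
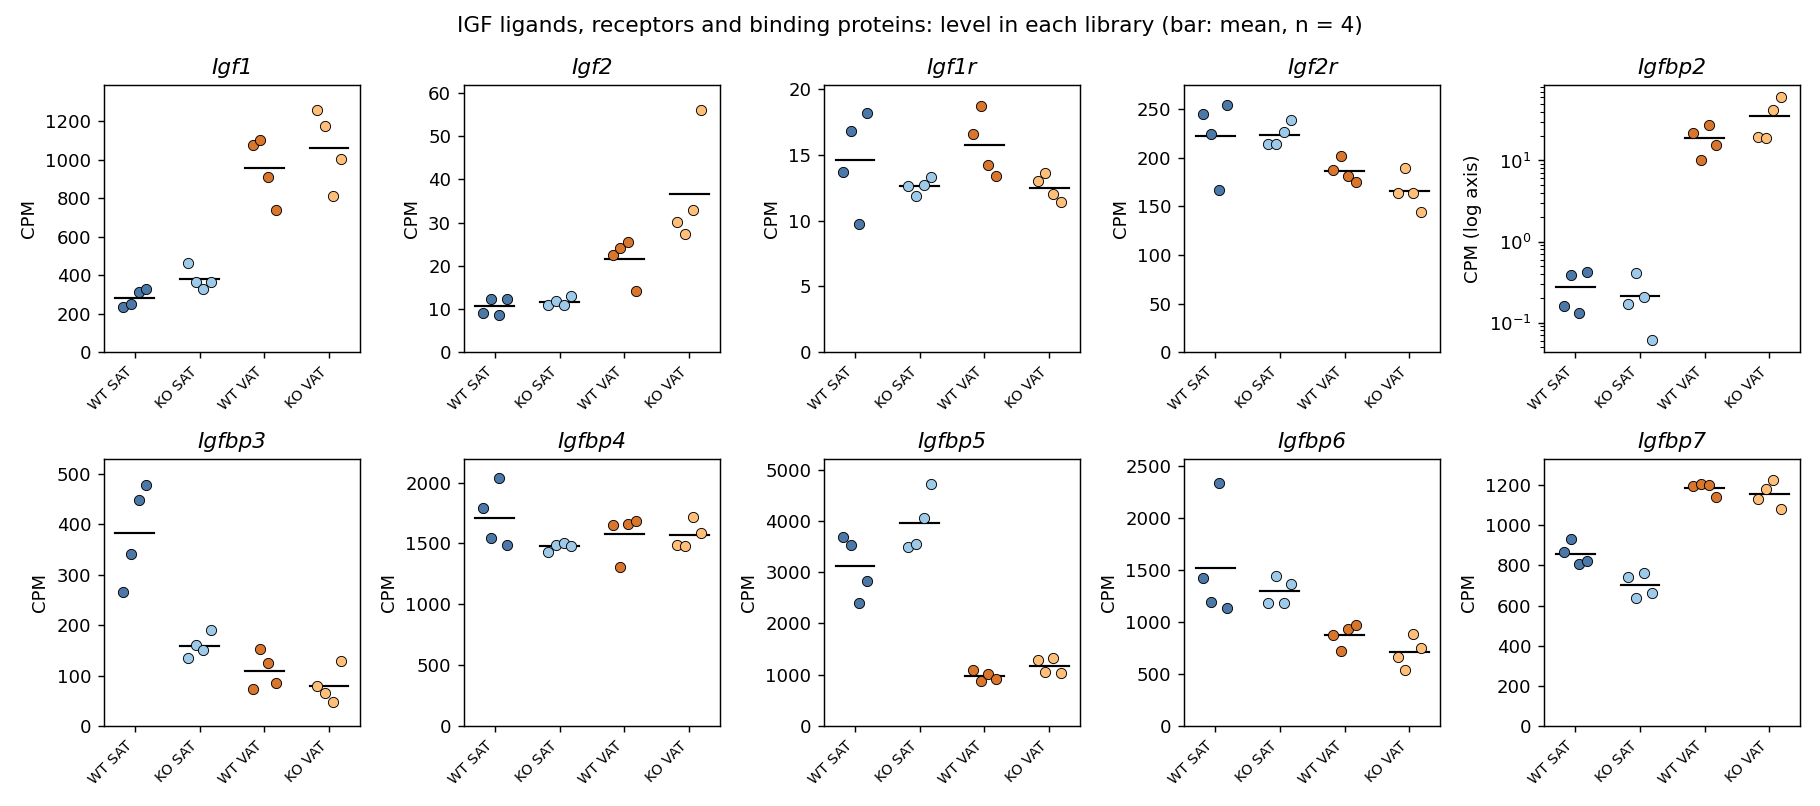
Level of each of the 10 genes in CPM (vertical axes from 0, log axis for Igfbp2) in the 4 libraries of each group (points) with the group mean (bar). Igf1 lies between 233 and 462 CPM in the SAT libraries and between 737 and 1259 CPM in the VAT libraries, and Igfbp3 is highest in WT SAT.

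More members were called between depots than between genotypes. In WT cells, VAT against SAT, 4 of the 10 genes were called higher and 3 lower, where 19.1% of all tested genes were called higher and 17.6% lower. In KO cells 4 were called higher and 4 lower, beside 23.3% and 20% of all tested genes. Igf1, Igf2, Igfbp2 and Igfbp7 were higher in VAT in both genotypes, and Igfbp3, Igfbp5 and Igfbp6 were lower. Igfbp2 passed the low-count filter only through VAT, where it was high, so its place among these calls depends on that group. The median log2 fold change of the 10 genes was -0.01 in WT and 0.03 in KO, near the medians over all tested genes (-0.00 and 0.02), with called members in both directions. The 7 depot calls shared by both genotypes were kept in every fit that left out 1 library and under every other test, scaling, filter, sample set and replicate block tried.

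**Figure D2:**
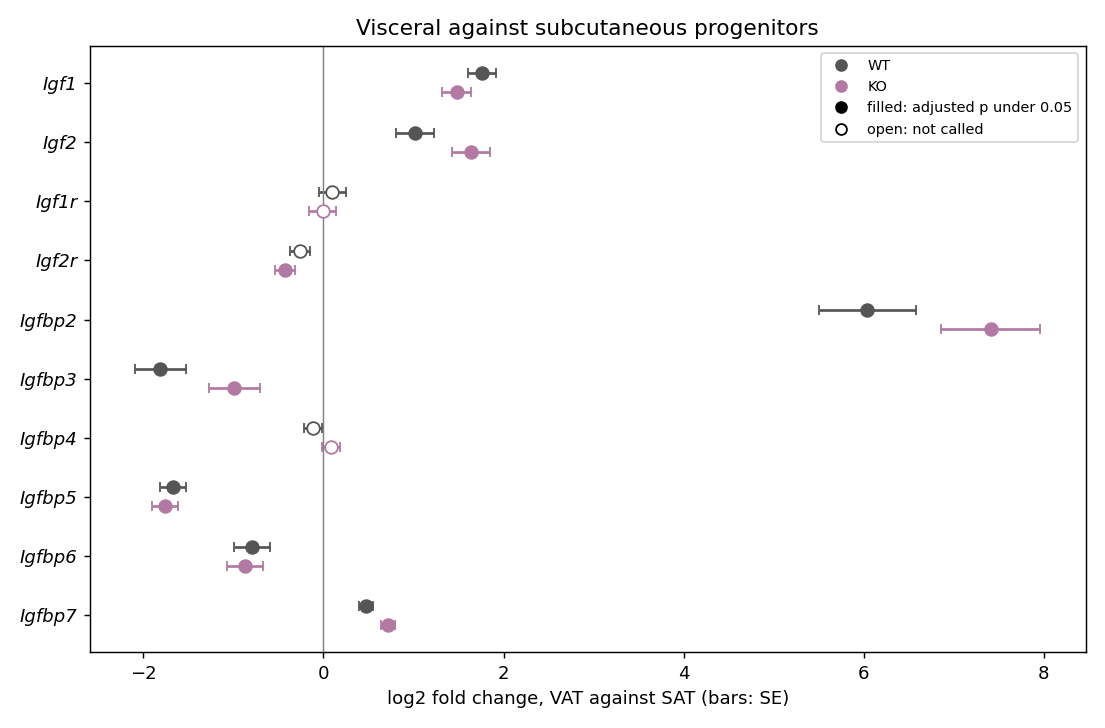
Log2 fold change of VAT against SAT (horizontal axis, bars show SE) for each gene in WT (grey) and KO (purple), filled where adjusted p is under 0.05. Igfbp2 lies at 6.04 and 7.41, while Igfbp3 and Igfbp5 lie between -1.81 and -0.99.

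Genotype called fewer members. In SAT, KO against WT, 0 members were called higher and 2 lower, beside 3.46% and 2.43% of all tested genes. In VAT 1 was called higher and 0 lower, beside 2.84% and 1.26% of all tested genes. In SAT the pericyte and smooth muscle markers summed to 1873 to 2629 CPM in KO and 2306 to 3950 CPM in WT, which overlap. Their median log2 KO difference was -0.26, with 0 of 8 called by edgeR and limma-voom, 2 by DESeq2, and 3 lower at an unadjusted p under 0.05, and their part in the KO SAT differences was not tested. For the 10 genes, at an unadjusted p under 0.05, 2 members were higher and 2 lower in KO SAT, and 2 were higher and 1 lower in KO VAT. DESeq2 and limma-voom also each called 2 members in SAT and 1 in VAT. The members' median log2 fold change was -0.21 in SAT and -0.02 in VAT, beside -0.01 and -0.00 for all tested genes. The test of whether the KO effect differed between depots called 0 members with edgeR, DESeq2 and limma-voom, while 0.131% of all tested genes were called higher and 0.137% lower by edgeR. At an unadjusted p under 0.05 it gave 2 members, Igfbp7 and Igfbp3. The SAT and VAT comparisons share no library, whereas a KO and a depot comparison that use the same group do.

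**Figure D3:**
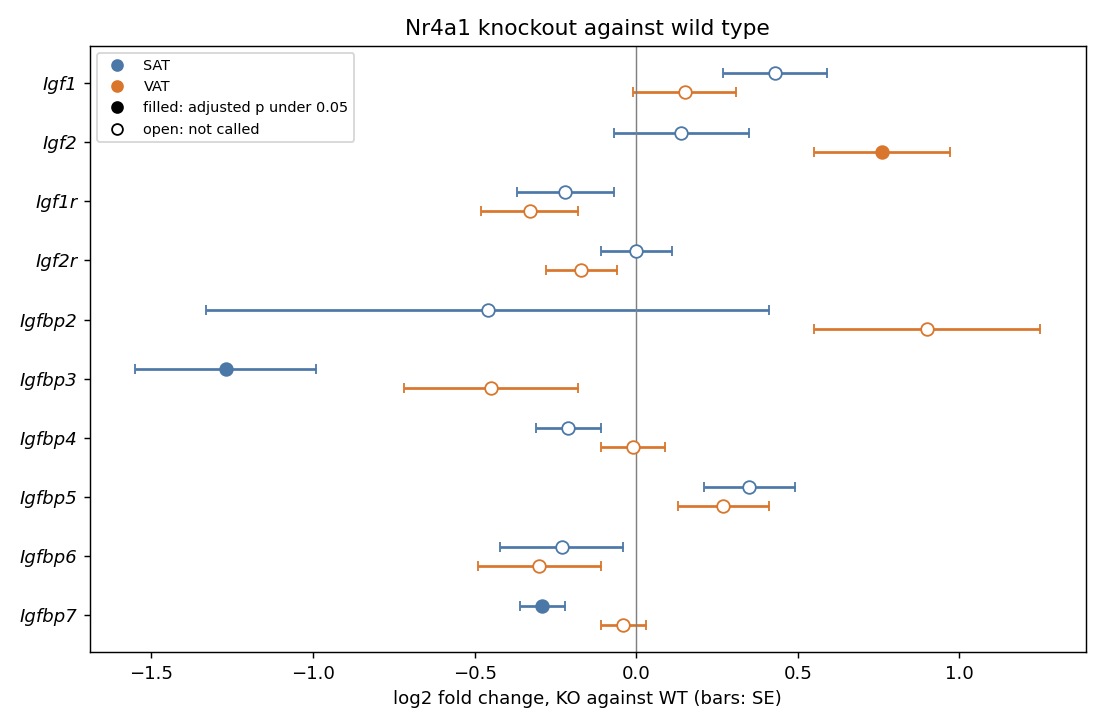
Log2 fold change of KO against WT (horizontal axis, bars show SE) for each gene in SAT (blue) and VAT (orange), filled where adjusted p is under 0.05. Igfbp3 at -1.27 and Igfbp7 at -0.29 in SAT and Igf2 at 0.76 in VAT are the filled points.

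Igf1 (chr10:87858265-87937042, plus strand, mm10) was the ligand transcript with the higher level per kilobase in every group. The WT SAT libraries read 233, 251, 313 and 329 CPM and the WT VAT libraries 1078, 1103, 910 and 737 CPM. The KO SAT libraries read 462, 367, 326 and 365 CPM and the KO VAT libraries 1259, 1175, 813 and 1006 CPM. Every VAT library was above every SAT library. The depot difference was 1.76 ± 0.16 on the log2 scale in WT (adjusted p = 1.93e-07) and 1.48 ± 0.16 in KO (adjusted p = 1.05e-06). In these bulk libraries, fewer cells of a type and less RNA per cell cannot be told apart. KO SAT was 0.43 ± 0.16 above WT SAT, with 1 KO library (326 CPM) inside the WT range, and this was not called (adjusted p = 0.122). The KO difference in VAT was 0.15 ± 0.16 (adjusted p = 0.693).

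Igf2 (chr7:142650766-142666816, minus strand), an imprinted growth factor gene expressed from the paternal copy in most fetal tissues, had 1.86 to 6.4 CPM per kb as group means, against 28.4 to 107 for Igf1. The WT SAT libraries read 9.18, 12.3, 8.71 and 12.3 CPM and the KO SAT libraries 11, 11.9, 11 and 13.0 CPM. The WT VAT libraries read 22.4, 24.2, 25.4 and 14.2 CPM and the KO VAT libraries 30.2, 27.4, 32.8 and 56.0 CPM. Every VAT library exceeded every SAT library, and every KO VAT library exceeded every WT VAT library. The depot difference was 1.02 ± 0.21 in WT (adjusted p = 0.00109) and 1.64 ± 0.21 in KO (adjusted p = 7.63e-06). The KO difference in VAT was 0.76 ± 0.21 (adjusted p = 0.0472), and in SAT 0.14 ± 0.21 (adjusted p = 0.737).

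The Igf2 call in KO VAT sat at the threshold. It was kept only without replicate 3 of WT SAT and without replicates 1 and 2 of KO VAT, and was lost on leaving out any of the other 13 libraries, with an adjusted p of up to 0.172 and a log2 difference of 0.48 without replicate 4 of KO VAT. It was also lost with only the groups of the comparison (adjusted p = 0.1) and with a replicate block (adjusted p = 0.0879). Replicate 4 of KO VAT held the highest Igf2, at 56.0 CPM, the highest Igfbp2 of all 16, at 60.5 CPM, and the highest summed skeletal muscle markers, at 26 CPM against 0.622 to 8.79 in the others. It also had the highest epithelial sum, at 36.9 CPM, and the lowest progenitor sum, at 2678 CPM, of all 16. The 6 mature adipocyte markers summed to 779 to 1367 CPM in KO VAT and 400 to 457 CPM in WT VAT, with 5 of 6 called higher, and their part in the Igf2 difference and the other KO VAT differences was not tested. Exons of Igf2 share 98 bases with the antisense gene Igf2os and 3596 bases with the same-strand gene model Gm49394. The library kit does not mark strand, so reads of Igf2 and Igf2os cannot be told apart there.

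H19, the long noncoding RNA next to Igf2 that is expressed from the maternal copy, was examined beside it. The WT SAT libraries read 19.9, 33.6, 28.3 and 38.6 CPM of H19 and the KO SAT libraries 99.0, 70.2, 93.2 and 107 CPM. The WT VAT libraries read 5.42, 7.9, 6.83 and 5.38 CPM and the KO VAT libraries 11.1, 9.94, 17.1 and 27.3 CPM. KO libraries did not overlap WT libraries in either depot. H19 rose in the knockout, with a log2 change of 1.62 ± 0.26 for SAT (adjusted p = 0.00132) and of 1.35 ± 0.28 for VAT (adjusted p = 0.00883), and no alternative tried removed either call. Between depots it went the other way from Igf2, lower in VAT by a log2 change of -2.24 ± 0.28 in WT and -2.50 ± 0.27 in KO (adjusted p = 6.5e-06 and 1.09e-06).

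**Figure D4:**
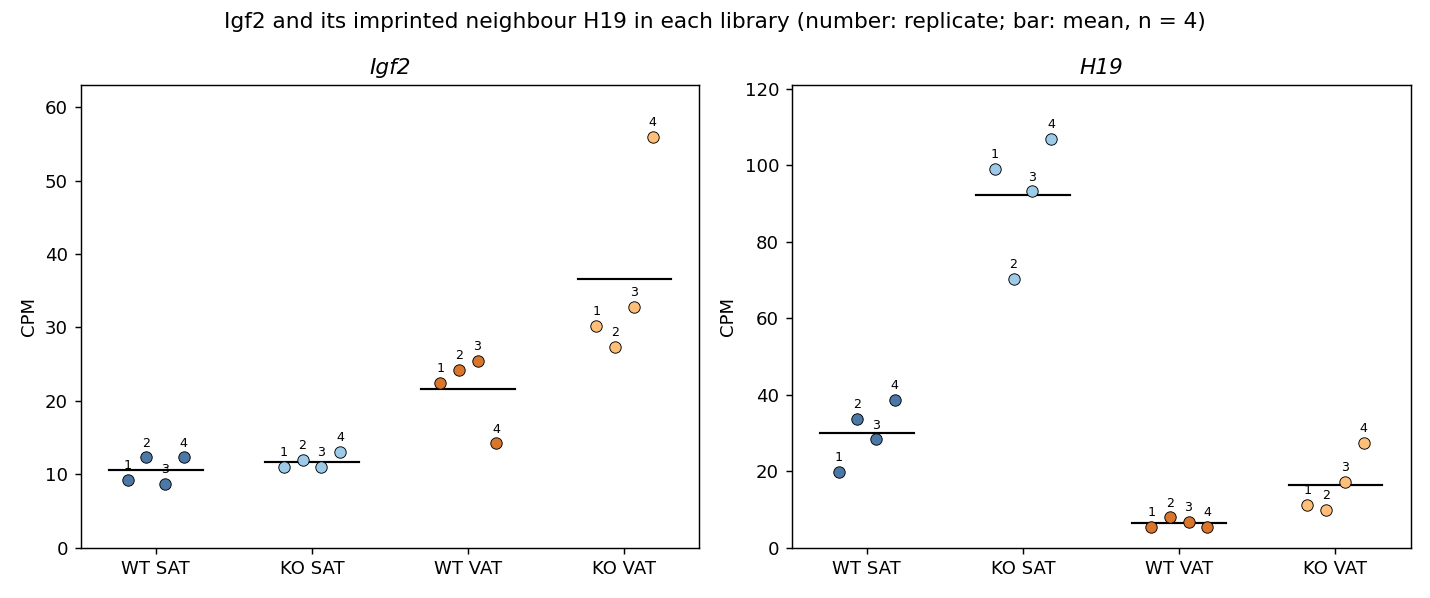
CPM of Igf2 (left) and H19 (right) in each library, with the replicate number beside each point and the group mean as a bar (n = 4). Igf2 is higher in VAT and H19 higher in SAT, and KO SAT libraries of H19 lie between 70.2 and 107 CPM.

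Igf1r (chr7:67952827-68233668, plus strand), the signalling receptor, was called in no comparison. SAT libraries ranged from 9.74 to 18.2 CPM (WT) and from 11.9 to 13.3 CPM (KO), and VAT libraries from 13.4 to 18.7 CPM (WT) and from 11.4 to 13.6 CPM (KO). The genotypes overlapped within each depot, and so did the depots within each genotype. The lowest adjusted p was 0.259, for a KO difference of -0.33 ± 0.15 in VAT.

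Igf2r (chr17:12682406-12769664, minus strand), the clearance receptor for IGF2, had 245, 225, 167 and 254 CPM in WT SAT and 214, 214, 227 and 239 CPM in KO SAT. It had 188, 202, 181 and 175 CPM in WT VAT and 164, 190, 164 and 144 CPM in KO VAT. KO VAT lay wholly below KO SAT, a log2 difference of -0.43 ± 0.11 (adjusted p = 0.00437). In WT the difference of -0.26 ± 0.11 was not called (adjusted p = 0.0806), and without replicate 3 of WT SAT, its lowest library, it was called (adjusted p = 0.00192). No KO difference was called (0.00 ± 0.11 in SAT, -0.17 ± 0.11 in VAT).

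Igfbp3 (chr11:7206086-7213923, minus strand) encodes the main IGF carrier of blood plasma. Its levels were 265, 342, 448 and 479 CPM in WT SAT and 134, 160, 151 and 190 CPM in KO SAT. In VAT they were 74.0, 153, 125 and 85.5 CPM in WT and 78.7, 66.1, 46.8 and 128 CPM in KO. WT SAT stood above every other library, with no overlap with KO SAT, whereas WT VAT and KO VAT overlapped. Igfbp3 fell in the knockout cells of SAT, a log2 change of -1.27 ± 0.28 (2.42-fold, adjusted p = 0.0113). The call was kept without each of the 16 libraries in turn (adjusted p 0.0037 to 0.0388) and under the 7 other settings (adjusted p 0.00171 to 0.0147). In VAT the KO difference was -0.45 ± 0.27 (adjusted p = 0.423), and the difference between the KO effects was 0.82 ± 0.39 (adjusted p = 0.311), so a depot dependence was not called. VAT was lower than SAT by a log2 change of -1.81 ± 0.28 in WT (adjusted p = 6.33e-05) and -0.99 ± 0.28 in KO (adjusted p = 0.0075). The gene Igfbp1, which lies next to Igfbp3 on chromosome 11, did not pass the low-count filter.

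Igfbp7 (chr5:77349240-77408041, minus strand) encodes a secreted protein that binds IGFs more weakly than the classical members. Its levels were 867, 930, 806 and 820 CPM in WT SAT and 741, 636, 760 and 665 CPM in KO SAT. They were 1194, 1205, 1200 and 1140 CPM in WT VAT and 1130, 1181, 1227 and 1079 CPM in KO VAT. KO SAT lay below WT SAT without overlap, a log2 change of -0.29 ± 0.07 (adjusted p = 0.0312), while the VAT groups overlapped (-0.04 ± 0.07, adjusted p = 0.863). The KO SAT change ran alongside the median of -0.26 of the pericyte and smooth muscle markers. The Igfbp7 call was lost with no low-count filter (adjusted p = 0.0852), with only the groups of the comparison (adjusted p = 0.13), and on leaving out WT SAT 1, WT SAT 2, KO SAT 2 or KO SAT 4 (adjusted p 0.0624 to 0.11). VAT exceeded SAT by 0.47 ± 0.08 in WT (adjusted p = 8.81e-05) and 0.72 ± 0.08 in KO (adjusted p = 6.36e-07). Exons of Igfbp7 share 85 bases with Polr2b on the other strand, whose reads cannot be told apart there.

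Igfbp2 and Igfbp5 are neighbours on chromosome 1 that point toward each other (chr1:72824503-72852474 on the plus strand and chr1:72857932-72874884 on the minus strand), and they differed between depots in opposite directions. Igfbp2, a binding protein known in fat as a preadipocyte product, was nearly undetected in SAT, with 0.16, 0.383, 0.133 and 0.424 CPM in WT (4 to 18 counts per library) and 0.168, 0.414, 0.207 and 0.0609 CPM in KO (3 to 16 counts). In VAT it reached 22.1, 10.1, 27.3 and 15.7 CPM in WT and 19.2, 18.8, 41.6 and 60.5 CPM in KO. No SAT library came near a VAT library. VAT exceeded SAT by 6.04 ± 0.54 in WT (66-fold, adjusted p = 1.14e-07) and by 7.41 ± 0.55 in KO (170-fold, adjusted p = 1.23e-08). With the SAT libraries alone Igfbp2 did not pass the low-count filter, so it was tested only through its VAT level. The size of both folds rests on few SAT reads. The median log2 depot difference of the 8 mesothelial markers was 7.98 in WT and 8.81 in KO, all 8 called higher in VAT, and their part in the Igfbp2 difference was not tested. The KO difference in VAT was 0.90 ± 0.35 with overlapping groups and was not called (adjusted p = 0.189). In SAT, KO and WT could not be distinguished at this depth (-0.46 ± 0.87, adjusted p = 0.791).

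Igfbp5 encodes a binding protein that is also held in the extracellular matrix. Its levels were 3695, 3531, 2401 and 2823 CPM in WT SAT and 3493, 3555, 4066 and 4729 CPM in KO SAT. They were 1083, 876, 1021 and 924 CPM in WT VAT and 1289, 1047, 1317 and 1040 CPM in KO VAT. The depots did not overlap, and the genotypes did. VAT was lower by a log2 change of -1.67 ± 0.14 in WT (adjusted p = 6.56e-08) and -1.76 ± 0.14 in KO (adjusted p = 3.09e-08). KO differences of 0.35 ± 0.14 in SAT (adjusted p = 0.149) and 0.27 ± 0.14 in VAT (adjusted p = 0.341) were not called.

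Igfbp6 (chr15:102144362-102149511, plus strand), whose product binds IGF2 in preference to IGF1, had 1419, 1186, 2331 and 1130 CPM in WT SAT and 1182, 1443, 1184 and 1362 CPM in KO SAT. It had 872, 722, 935 and 973 CPM in WT VAT and 663, 540, 881 and 753 CPM in KO VAT. Every SAT library lay above every VAT library. VAT was lower by a log2 change of -0.79 ± 0.20 in WT (adjusted p = 0.00401) and -0.87 ± 0.20 in KO (adjusted p = 0.00167). In WT the change without replicate 3 of WT SAT was -0.51, with the call kept. Igfbp6 lies 0.87 Mb from Nr4a1 on chromosome 15. Of the 40 tested genes within 1 Mb of Nr4a1, 12.5% were called between KO and WT in SAT (0 higher and 5 lower) and 17.5% in VAT (2 higher and 5 lower). Within 10 Mb the shares of 168 tested genes were 8.93% and 8.33%, and over all tested genes they were 3.46% higher and 2.43% lower in SAT and 2.84% and 1.26% in VAT. Igfbp6 was not among the called genes (-0.23 ± 0.19 in SAT, -0.30 ± 0.19 in VAT, adjusted p = 0.505 and 0.462).

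Igfbp4 (chr11:99041244-99054392, plus strand), an inhibitor of IGF action that pappalysin-1 cleaves, was called in no comparison. SAT libraries ranged from 1486 to 2036 CPM (WT) and from 1432 to 1507 CPM (KO), VAT libraries from 1307 to 1686 CPM (WT) and from 1481 to 1716 CPM (KO), and these ranges overlapped. Its depot difference was -0.12 ± 0.10 in WT and 0.08 ± 0.10 in KO, and its KO difference -0.21 ± 0.10 in SAT and -0.01 ± 0.10 in VAT (adjusted p 0.234 to 0.979).

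As sums per kilobase, SAT cells held 30.3 ± 4.8 (WT) and 40.4 ± 5.8 (KO) CPM per kb of ligand transcripts, and VAT cells 100 ± 17.8 (WT) and 114 ± 19.3 (KO) CPM per kb (SD, n = 4). The 6 binding proteins summed to 3100 ± 480 (WT) and 2787 ± 137 (KO) CPM per kb in SAT and 2332 ± 130 (WT) and 2188 ± 191 (KO) CPM per kb in VAT. The ratio of binding protein to ligand transcripts was 123, 105, 114 and 75 in WT SAT and 54.1, 71.7, 79.2 and 75.6 in KO SAT, which overlap. It was 20.9, 18.5, 25.3 and 31.1 in WT VAT and 16, 16.2, 27.9 and 19.5 in KO VAT, below every SAT library. These are RNA ratios, described without a test, and say nothing of protein. Within the binding protein sum, Igfbp7 took 23.3% ± 4 in WT SAT and 42.1% ± 3.08 in WT VAT. The share of Igfbp5 was 17.1% ± 4.51 in WT SAT and 6.96% ± 0.499 in WT VAT. Igfbp3 took 4.02% ± 1.26 in WT SAT and 1.81% ± 0.179 in KO SAT. Igfbp4 took 11.4% to 13.1% in the SAT libraries and 13.8% to 16.7% in the VAT libraries, with no overlap.

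**Figure D5:**
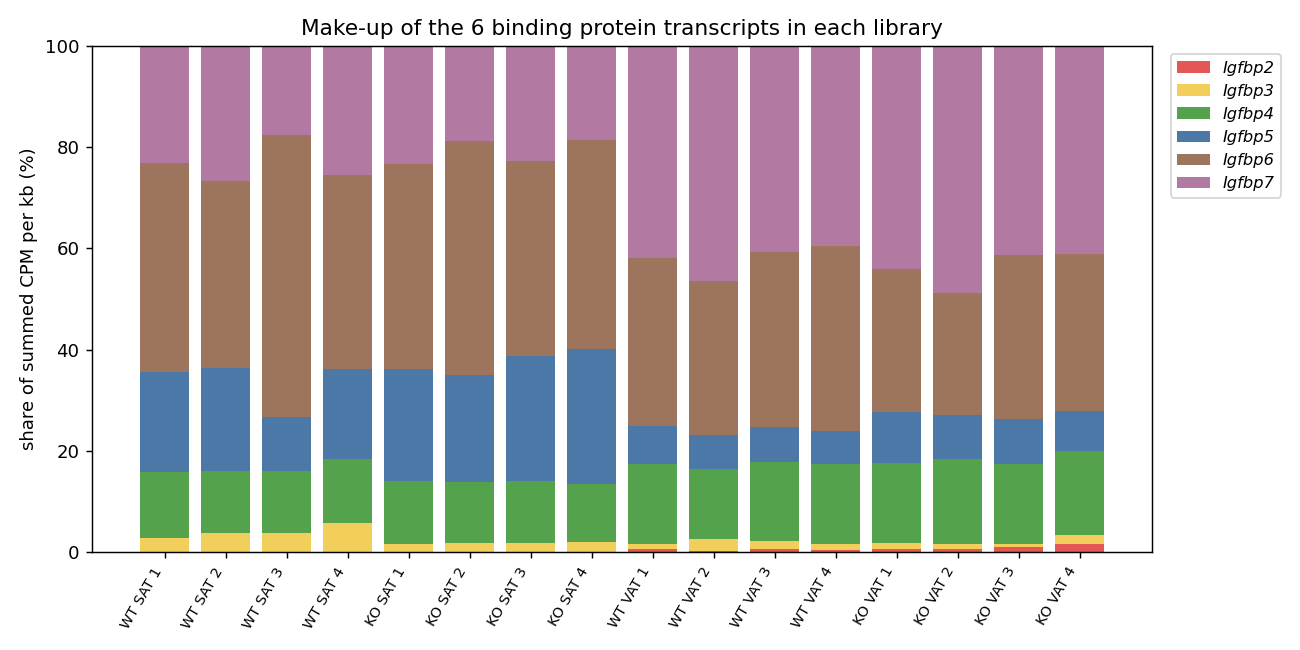
Stacked bars of the share of each binding protein gene in the summed CPM per kb of all 6 (vertical axis, percent) for each library by group and replicate number. The Igfbp7 share lies between 17.7% and 26.7% over the SAT libraries and between 39.5% and 48.8% over the VAT libraries.

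Genes that carry IGFs or release them from binding proteins were compared next. Of 8 listed carriers, proteases and inhibitors, 6 were tested (Igfbp1 and Igfbpl1 were not), and VAT against SAT called 3 higher (Pappa, Pappa2, Stc2) and 2 lower (Htra1, Stc1) in WT and the same 3 higher and 1 lower (Htra1) in KO. For this list and those that follow, the shares of all tested genes were 19.1% higher and 17.6% lower in WT and 23.3% and 20% in KO, with medians of -0.00 and 0.02. The median log2 depot difference of the 6 genes was 0.58 in WT and 0.84 in KO. The pappalysin proteases Pappa and Pappa2 were higher in VAT by 1.79 ± 0.26 and 1.87 ± 0.23 in WT and by 1.81 ± 0.26 and 0.97 ± 0.22 in KO. Stc2, a stanniocalcin that inhibits pappalysins, was also higher in VAT, by 0.98 ± 0.12 in WT and 1.09 ± 0.12 in KO. Htra1, a secreted serine protease that cleaves Igfbp5, was lower in VAT, with 820 to 1096 CPM in SAT and 526 to 636 CPM in VAT.

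Between genotypes, 1 of the 6 tested genes was called in each depot, higher in KO, beside 3.46% of all tested genes in SAT and 2.84% in VAT. Pappa2 had 4.09, 3.29, 3.34 and 4.83 CPM in WT SAT and 8.47, 8.34, 6.98 and 8.12 CPM in KO SAT. The groups did not overlap, and the rise was 1.03 ± 0.23 (adjusted p = 0.0131, range 0.000315 to 0.0692 over the alternatives, above 0.05 only with limma-voom). The KO difference of Pappa2 in VAT was 0.12 ± 0.21 and was not called. Stc1, the other stanniocalcin, was higher in KO VAT by 0.64 ± 0.17 (adjusted p = 0.0479), from 3.52 to 4.92 CPM in WT to 5.23 to 8.66 CPM in KO. That call was lost without any of 11 libraries (WT SAT 1 and 4, KO SAT 1 to 3, WT VAT 1 to 3 and KO VAT 1 to 3, adjusted p up to 0.157) and under 4 other settings.

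Of 21 genes of insulin and IGF receptor signalling, 4 were called higher (Insrr and Pik3cb among them) and 7 lower in VAT in WT, and 3 higher (Insrr, Irs4, Pik3cb) and 6 lower in KO. Irs4 had 0 to 1 counts per library in SAT, so it was tested only through VAT. In KO VAT replicates 1 to 4 it had 7, 12, 40 and 211 counts, most of them in replicate 4. The combined count in KO was near the share of all tested genes, and the list's median log2 depot difference was -0.01 in WT and -0.05 in KO. Insrr, an orphan receptor of the insulin receptor family, was higher in VAT by 1.89 ± 0.27 in WT and 2.57 ± 0.27 in KO. Pik3cb, a catalytic subunit of phosphoinositide 3-kinase, was higher by 2.07 ± 0.26 and 1.74 ± 0.26. The adaptors Grb10 and Grb14, which restrain insulin and IGF receptors, were lower by log2 changes of -0.75 ± 0.10 and -0.76 ± 0.14 in WT and -1.12 ± 0.10 and -0.37 ± 0.14 in KO. KO against WT called 0 of 21 in SAT with edgeR and limma-voom and 2 with DESeq2 (1 higher and 3 lower at an unadjusted p under 0.05). In VAT edgeR called 1, the transcription factor gene Foxo3, at -0.36 ± 0.09 (adjusted p = 0.0315, 102 to 107 CPM in WT and 68.2 to 95.6 CPM in KO). That stands beside 2.84% of all tested genes called higher and 1.26% lower in VAT. DESeq2 called 2 of the 21 there and limma-voom 1, and at an unadjusted p under 0.05, 2 were higher and 3 lower. The Foxo3 call did not survive leaving out WT VAT 1, 2, 3 or 4 or KO VAT 2, 3 or 4 (adjusted p 0.0587 to 0.0947) and with only the groups of the comparison (adjusted p = 0.0598).

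Growth hormone induces Igf1 in many tissues through its receptor and STAT5. Of 6 genes of that axis, VAT against SAT called the receptor Ghr, Stat5a and Stat5b lower and the STAT5 target Cish higher in both genotypes, with a list median of -0.18 in WT and -0.26 in KO. Ghr ranged from 104 to 155 CPM in SAT and from 65.5 to 80.6 CPM in VAT, opposite in direction to Igf1 (-0.77 ± 0.09 in WT, adjusted p = 2.3e-06, and -0.86 ± 0.09 in KO, adjusted p = 4.9e-07). Cish was higher in VAT by 0.69 ± 0.22 in WT and 0.98 ± 0.22 in KO (adjusted p = 0.0191 and 0.0014). The WT call of Cish was lost without replicate 1 of WT SAT (adjusted p = 0.0583) and with only the groups of the comparison (adjusted p = 0.0581). KO against WT called 0 of 6 in either depot with edgeR, DESeq2 and limma-voom, with 1 higher in each at an unadjusted p under 0.05.

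Of 10 imprinted genes linked to Igf2 in development, KO against WT called 3 higher in SAT (H19, Mest and Peg3) and 1 in VAT (H19), with 0 lower in both by edgeR, beside 3.46% of all tested genes called higher in SAT and 2.84% in VAT. At an unadjusted p under 0.05, 1 was lower in SAT and 0 in VAT. Peg3, which encodes a zinc finger protein, rose by 0.73 ± 0.17 in SAT (adjusted p = 0.0191), a call lost without WT SAT 1, KO SAT 1 or KO SAT 4 (adjusted p 0.0535 to 0.0612). Mest rose by 0.73 ± 0.20 (adjusted p = 0.0379), a call lost without any of 10 libraries (WT SAT 1 and 2, KO SAT 1 to 4, WT VAT 1, 3 and 4, and KO VAT 1, adjusted p up to 0.0936), with only the groups of the comparison and with a replicate block. The 10 genes' median log2 KO difference was 0.10 in SAT and 0.22 in VAT. Between depots 2 were called higher (Mest, Zdbf2) and 6 lower in VAT in WT, and 1 higher (Zdbf2) and 5 lower (H19, Meg3, Plagl1, Peg3, Gnas) in KO, with list medians of -0.51 and -0.34. None of the 3 IGF2 mRNA-binding proteins (Igf2bp1 to Igf2bp3) was called between genotypes by edgeR, DESeq2 or limma-voom, and 0 had an unadjusted p under 0.05.

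Over the 16 libraries, the genes whose log2 CPM ran most like Igf1 were Hrsp12 (Pearson's r = 0.973), Ttyh1 (0.971) and Itih2 (0.970). Those most like Igf2 were Kcnip1 (0.957), Slc35f2 (0.956) and Lama1 (0.953), and those most like Igfbp3 were Fam46a (0.929), Herpud1 (0.924) and Gm26917 (0.923). Kcnip1, Slc35f2 and Lama1 had group means of 0.0365 to 0.234 CPM in SAT, so their values rest on few reads there. The libraries share the split into depots, so these values describe these libraries only.

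The promoters of the 10 genes were searched for the response element that NR4A receptors bind as monomers, spelled AAAGGTCA, on both strands. The windows ran from 250 bases before to 50 bases after each RefSeq start (GRCm38.p6). None of the 14 windows of 300 bases matched, and 1.51% of 32851 promoters of the same length did. The result says only that these letters are not in these windows.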

How the data were processed

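Per the labels, RNA was purified from adipose progenitors, the NEBNext Ultra kit, which does not mark strand, gave the libraries, and sequencing was single-read on an Illumina NextSeq. The sources name neither the isolation markers nor the sex of the mice. The submitters' processing notes list the tools featureCounts, STAR, DESeq and FastQC and build mm10, with versions and settings not given in the sources. The authors deposited whole-number counts per gene symbol and library, on which all tests ran. The authors also deposited a table of signal values, which equalled counts over 1 factor per library (relative deviation at most 9.85e-10 above 50 counts) and was otherwise not used.

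The 10 genes, the related gene lists and the marker lists were chosen with earlier results of these data known. Counts were analysed with R 4.3.3, edgeR 4.0.16, limma 3.58.1 and DESeq2 1.42.0, and figures were drawn with matplotlib 3.10.9. filterByExpr kept 16842 genes, libraries were scaled by TMM, and the quasi-likelihood model had 1 coefficient for each group and used all 16 libraries (12 residual degrees of freedom). Called means a Benjamini-Hochberg adjusted p under 0.05. SE is the absolute log2 fold change over the square root of F. Gene positions, exon lengths and coding bases came from GENCODE vM21 (GRCm38), matched for 98.8% of tested genes, and promoters from RefSeq. Beyond the 10 genes and Nr4a1, the text names up to 4 genes per related list with the smallest p in a comparison, and the 3 genes most alike Igf1, Igf2 and Igfbp3. Not every gene in a list count is reported by name here. Plagl1, Stc1 and Mest between depots, Meg3 and Grb14 between depots in KO, and Pappa2 in KO VAT fell outside that rule and were named after their values were seen. The scripts were tested on simulated data. Alternatives were DESeq2, limma-voom, other scalings, no filter, only the groups compared, each library left out, replicate blocks, and the longest transcript for length.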

Additional observations from a re-analysis of the deposited data

Results flagged for a closer look

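Within 40 sets of 4 libraries (10 genes in 4 groups), 2 held a library set apart from the other 3 by Dixon's criterion, about the number chance gives at 1 in 20. Igfbp4 in replicate 2 of WT VAT stood at 1307 CPM, below the nearest at 1653 CPM. Igfbp7 in replicate 4 of WT VAT stood at 1140 CPM, below the nearest at 1194 CPM.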

How the results depend on the processing

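With DESeq2 in place of edgeR, 1710 genes were called between KO and WT in SAT, 1248 in VAT and 563 for the difference between the KO effects, against 992, 690 and 45. With no low-count filter 1 of the 10 genes was called in KO SAT. With only the groups of the comparison 1 was called in KO SAT and 0 in KO VAT, 509 genes were called in SAT (72.1% higher against 58.7%), and Igfbp2 in SAT could not be fitted because it did not pass the filter there. With upper-quartile factors the KO VAT calls were 597 higher and 149 lower, against 478 and 212. No scaling moved the median of all genes by over 0.1. Leaving out each library gave 469 to 1158 genes called in KO SAT, 412 to 1216 in KO VAT and 7 to 149 for the difference, with 1 to 2 and 0 to 1 of the 10 genes called in KO SAT and KO VAT. The lowest counts in SAT (469) and for the difference (7) came without KO SAT replicate 4, the lowest in VAT (412) without KO VAT replicate 4, and the highest in VAT (1216) without WT SAT replicate 3 and for the difference (149) without KO VAT replicate 3. In SAT 579 and 661 genes were called without KO SAT replicates 2 and 3, and in VAT 426 and 455 without WT VAT replicates 1 and 4. For the difference, leaving out any library but WT SAT 2 and 3, WT VAT 2 and KO VAT 3 gave 7 to 24 genes. Ligand sums over the longest transcript were 42.2, 56.4, 140 and 159 CPM per kb in WT SAT, KO SAT, WT VAT and KO VAT.

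The labels do not say whether SAT and VAT libraries of the same number came from 1 mouse. For that reason the numbers were not taken to pair the samples in the main fit. Correlations of same-numbered deviations ranged from -0.16 to 0.18. Between WT SAT and WT VAT they were 0.14, 0.12, 0.11 and -0.04 for replicates 1 to 4. The highest with another number were 0.07, 0.04, 0.13 and 0.06. Between KO SAT and KO VAT the same-numbered values were 0.04, -0.04, 0.05 and 0.04, and the highest others 0.02, 0.05, 0.03 and -0.01. With a replicate block over all groups, 2 of the 10 genes were called in KO SAT, 0 in KO VAT (Igf2 at an adjusted p of 0.0879), 7 and 8 between depots in WT and KO, and 14 genes for the difference, or 11 with a block within genotype.

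Of the fold changes recomputed for the 10 genes and the named genes, 2100 kept their direction and side of the threshold, 69 lost a call, 1 gained one (Igf2r between depots in WT) and 23 changed sign, all of differences near 0 that were called in neither fit. Igf2r in KO SAT ranged from -0.11 to 0.07 with 1 library left out (-0.00 and -0.03 without KO SAT replicates 3 and 4). Igfbp6 in KO SAT ranged from -0.35 to 0.05, the latter without WT SAT replicate 3. Igfbp4 in KO VAT was 0.03 with upper-quartile factors, 0.00 with only its groups, and -0.09 to 0.02 with 1 library left out (0.01 or 0.02 without 5 of them), and Igfbp7 there was 0.00 with upper-quartile factors. Igf1r between depots ranged from -0.04 (without WT SAT replicate 3) to 0.23 in WT, and in KO from -0.06 to 0.03, with 0.02 under upper-quartile factors. The difference between KO effects ranged from -0.24 to 0.03 for Igf1r, -0.18 to 0.02 for Igfbp5 and -0.36 to 0.04 for Igfbp6 with 1 library left out. The cause was not tested.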
